A study of Mus musculus with 2 samples.

Results

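Mir92b and Mir383 are a pair of mouse microRNA (miRNA) genes that were abundant in a first cortex library and nearly absent from a second library of the same group. They are 2 of the 2202 miRNA genes counted, found by gene identifier in GENCODE M21, and they were selected on their own-strand counts in the 2 libraries, high in the first and low in the second. Their values are therefore given as a description, with no test of the difference that chose them. The libraries are microRNA-seq of RNA under 30 nt from left cerebral cortex of B6CASTF1/J males at 4 days of age, an F1 hybrid mouse made by crossing C57BL/6J with CAST/EiJ. There is 1 group, with no treatment and no altered gene named in the labels, and it holds 2 libraries, which the labels number as biological replicates 1 and 2 and which are called here the libraries labelled 1 and 2. The labels give the males different numbers but cite the same donor identifier for both, so the spread between the libraries may or may not be a spread between animals.

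A miRNA is cut from a hairpin transcript into short arms. The loaded arm pairs with messenger RNAs mainly through its seed, bases 2 to 8, and lowers their output. In the embryonic mouse cortex miR-92b is known to repress Eomes (Tbr2), the transcription factor of intermediate progenitors, and to limit their number. MiR-383 is better known from the gonad, and in mouse ovarian granulosa cells it acts on Rbms1 and steroid hormone output. The pair had been grouped as linked to progenitors, but the tables hold no measure of cell type, so that link could not be examined here. Brain tissue holds many cell types, and in such bulk RNA fewer cells of a type and less RNA per cell cannot be told apart.

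The Mir92b hairpin is shown first because its 3p arm sets the family to which the gene is compared. On mm10 the gene (ENSMUSG00000076255.2) lies on the minus strand of chromosome 3 at 89227116 to 89227198, 83 bases long. It overlaps no annotated protein-coding gene and no other miRNA gene, and other gene types were not searched. In the hairpin below the capitals mark the 3p arm, bases 52 to 73.
Mir92b hairpin: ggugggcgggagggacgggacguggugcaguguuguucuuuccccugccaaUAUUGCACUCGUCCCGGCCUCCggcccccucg
The 3p arms that share their seed with miR-92b-3p, and the 5p arm in the case of miR-32, follow with the seed in capitals. The sequences are RefSeq's, on build GRCm38.p6, the same assembly as mm10.
miR-92b-3p: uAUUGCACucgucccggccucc
miR-92a-3p: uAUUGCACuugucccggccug
miR-25-3p: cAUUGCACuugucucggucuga
miR-32-5p: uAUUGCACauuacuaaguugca
miR-363-3p: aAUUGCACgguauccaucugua
miR-367-3p: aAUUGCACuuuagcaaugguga
These 6 mature arms come from 7 genes, because Mir92-1 and Mir92-2 both encode miR-92a-3p. Against miR-92a-3p, miR-92b-3p was identical at 19 of the 21 positions compared and differed by U10C and G21C, counted from the 5′ end with the base of miR-92a-3p first. Against miR-25-3p it was identical at 16 of 22 positions, and against miR-32-5p at 11 of 22. The arms of miR-363 and miR-367 were each identical to it at 10 of 22 positions, so outside the seed they were the least alike.

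These sequences bear on how firmly the genes of the seed family were counted. Mir383 has no sequence in the RefSeq table used, so neither shared runs nor base composition were examined for it. In tables of this layout a read that fits several sites goes to no gene. The longest run that the Mir92b hairpin shared with any other hairpin in the RefSeq table was 12 nt, with Mir149 and Mir195a. Only exact runs were compared, so reads placed with mismatches and sites outside these hairpins were not covered. Mir92-1 and Mir92-2 shared 22 nt, which is the length of a whole mature arm, so their counts may be too low and are uncertain. The Mir92b hairpin was also rich in G and C, at 67.5% of its bases, against a median of 51.4% over the 397 tested genes with a RefSeq hairpin. Of those 397 genes, 20 (5.04%) had at least as much G and C, Mir92b among them. The median log2 ratio of these 20 genes, the library labelled 1 over the library labelled 2, was 1.92, against 1.32 over the 397, and they ranged from -1.32 to 9.27. The part of base composition in the levels was not tested. The predicted minimum free energy of the Mir92b hairpin was -52.7 kcal/mol, with 62 of its 83 bases paired.

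Mir383 (ENSMUSG00000065457.3) lies on the minus strand of chromosome 8 at 38252133 to 38252202, 70 bases long. It sits on the same strand inside intron 1 of both annotated transcripts of Sgcz, which encodes zeta-sarcoglycan of the dystrophin-associated complex. That intron spans 707667 bp. The next protein-coding gene is Tusc3, 753643 bp away, and the next miRNA gene is Mir7666, 2055673 bp away. Mir92b has a much denser neighbourhood. It lies 28 bp upstream of the start of Mtx1, a gene of mitochondrial protein import on the same strand, and lies 279 bp from Thbs3 and 1859 bp from Muc1, both on the other strand. Its nearest miRNA gene is Mir1905, 690734 bp away. Neither gene is thus part of a miRNA cluster at this spacing, unlike Mir92-1, Mir25 or Mir363.

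Own-strand counts given to miRNA genes numbered 2999032 in the library labelled 1 and 3577964 in the library labelled 2. They were 29.9% and 52.6% of all reads, while reads placed at several sites were 46.1% and 39.8%. The libraries stood apart in their marker genes. The 17 neuron-enriched miRNA genes took 3.04% of counts (exact 95% binomial interval 3.02 to 3.06) in the library labelled 1 and 0.132% (0.128 to 0.136) in the library labelled 2. The 9 muscle genes took 0.00730% and 15.7%, nearly all of it from Mir206, with 0.00707% and 15.6%. In the library labelled 1, 6 of the 9 were at 0, beside 1509 of all 2202 genes, so that count is near the background. The 5 Hox cluster genes took 0.0228% and 1.91%. The markers of the library labelled 2 thus go against its cortex label, and every direction below refers to the labels alone. All intervals cover counting error only, and amplified reads are not independent molecules.

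Mir92b had 10118 counts in the library labelled 1 and 16 counts in the library labelled 2. As CPM, the counts scaled to the total of own-strand counts in the library, that was 3374 CPM (exact 95% Poisson interval 3308 to 3440) and 4.47 CPM (2.56 to 7.26). The gene stood at rank 55 of the 693 genes with a count in the library labelled 1, and at rank 292 of 604, a rank shared by 6 genes, in the library labelled 2. There 4.47 CPM was just above the median of 3.77 CPM over the genes with a count. Its mean was 1689 ± 2382 CPM (SD, n = 2), an SD larger than the mean.

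Mir383 had 4802 counts in the library labelled 1 and 16 counts in the library labelled 2. Its levels were 1601 CPM (1556 to 1647) and 4.47 CPM (2.56 to 7.26), at ranks 83 and 292. The mean was 803 ± 1129 CPM (SD, n = 2). In the library labelled 2 both genes had the same count and stood above the 0.838 CPM that a count of 0 allows, so each was still detected there. In the library labelled 1, Mir92b had 2.11 times the counts of Mir383 (2.04 to 2.18). In the library labelled 2 the quotient was 1.00, and its interval of 0.468 to 2.14 only just includes the first library's value. At 16 counts each, whether their balance differed between the libraries could not be settled. For both genes the opposite-strand column held 0 counts in both libraries, and counting either strand gave the same counts as the own strand.

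**Figure D1:**
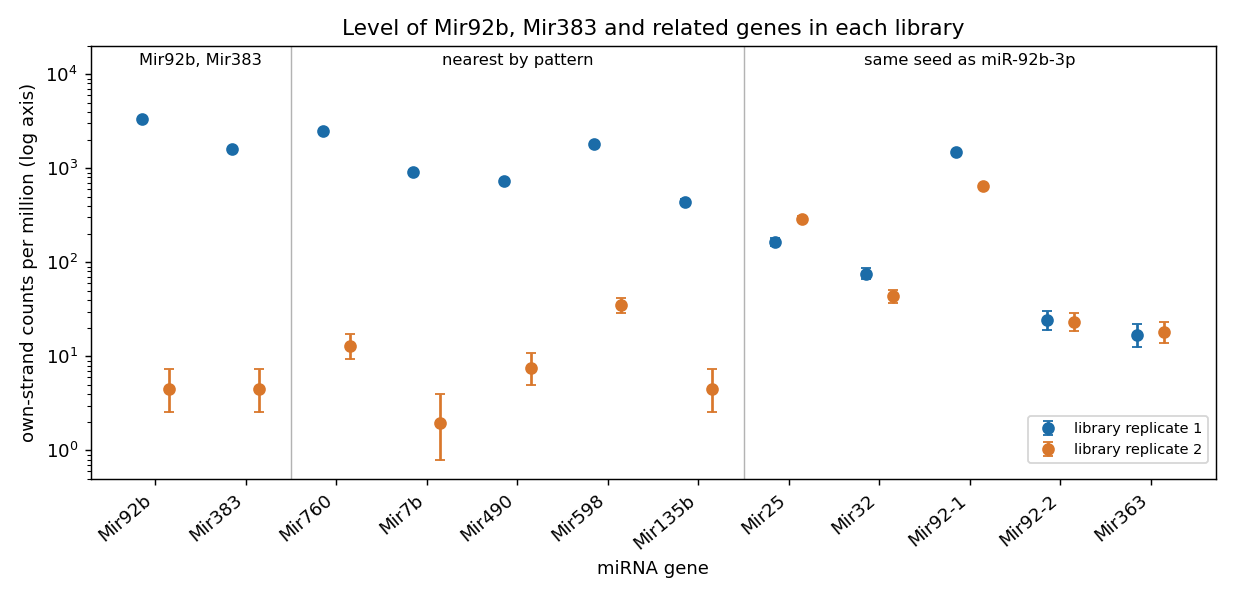
Own-strand CPM on a log axis for each gene, with the library labelled 1 left (blue) and the library labelled 2 right (orange), and bars for the exact 95% Poisson interval. Mir92b and Mir383 stand at 3374 and 1601 CPM in the library labelled 1 and both at 4.47 CPM in the other, while the 5 drawn genes with the miR-92b-3p seed lie much closer together (Mir367, with 0 counts in both, is not drawn).

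The ratio of the library labelled 1 to the library labelled 2 was 754-fold for Mir92b (exact 95% Clopper-Pearson interval 464 to 1320) and 358-fold for Mir383 (220 to 627). Over the 463 genes with at least 10 counts summed, 4.54% were at least 100-fold higher in the library labelled 1, and both genes are among these by the way they were chosen. On the log2 scale with a prior of 1 CPM the ratios were 9.27 and 8.19, or 7.92 and 6.84 above the median of all tested genes, which was 1.35. By this ratio Mir92b had rank 1 and Mir383 rank 4 of the 463 genes. The size of the fold depends on the scaling. With edgeR's TMM factors, which move the log2 ratio of an abundant gene by -1.40, the folds were 285 for Mir92b and 135 for Mir383, and the median of all tested genes was 0.26. With 1 library on each side there is no replicate check of either fold.

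**Figure D2:**
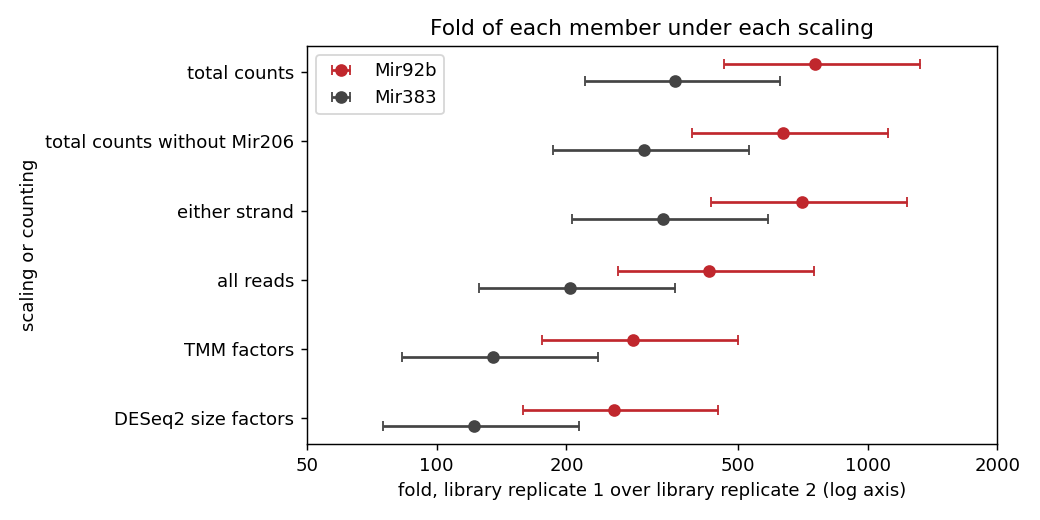
Fold of the library labelled 1 over the library labelled 2 on a log axis for Mir92b (red) and Mir383 (grey) under 6 ways of scaling or counting, with exact 95% Clopper-Pearson intervals. The folds run between 257 and 754 for Mir92b and between 122 and 358 for Mir383, and the intervals of the 2 genes overlap under each scaling.

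No numeric bound was set when the pair was picked. Bounds of at least 1000 CPM in the library labelled 1 and at most 10 CPM in the library labelled 2, drawn with these values known, hold Mir92b and Mir383 alone. Of the 96 genes at or above 1000 CPM in the library labelled 1, 4 were at least 100-fold higher there, namely these 2 with Mir137 and Mir760. Just outside lay Mir7b, with 915 and 1.96 CPM, and Mir490, with 739 and 7.55 CPM. On the other side of the bounds lay Mir760, with 2473 and 12.9 CPM, Mir137, with 13418 and 27.7 CPM, and Mir449a, with 1102 and 29.1 CPM.

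The genes with the most similar levels were found by the distance over log2(CPM + 1) in the 2 libraries, which is a description over 2 points. Each of the pair was the gene nearest to the other, at a distance of 1.07. Both were picked on these same values, so their nearness follows largely from the selection and is no separate result. For Mir92b the next were Mir760 (1.41), Mir7b (2.08), Mir490 (2.28) and Mir598 (2.86). For Mir383 they were Mir7b (1.20), Mir490 (1.29), Mir760 (1.48) and Mir135b (1.85). Mir7b is a brain miRNA, rich in the hypothalamus. Mir490 lies within Chrm2, a muscarinic acetylcholine receptor gene, Mir598 within Xkr6 and Mir135b within Lemd1, each on the host's strand.

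Mir598 had 5475 counts in the library labelled 1 and 125 in the library labelled 2, and Mir135b had 1328 and 16. Mir7b had 2743 and 7 counts, a 468-fold ratio (227 to 1164) whose interval overlaps those of both Mir92b and Mir383. Mir760 had 7418 and 46 counts, a 192-fold ratio (144 to 263) that lies below the interval of Mir92b and overlaps that of Mir383. An arm of each of 3 of these genes is shown, with the seed in capitals, because none carries the seed of miR-92b-3p.
miR-7b-5p: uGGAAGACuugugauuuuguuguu
miR-490-3p: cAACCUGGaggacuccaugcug
miR-760-3p: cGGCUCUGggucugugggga
The RefSeq table holds 7 arms for 4 of the 5 nearby genes, with 7 different seeds, and 0 of them have that of miR-92b-3p.

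**Figure D3:**
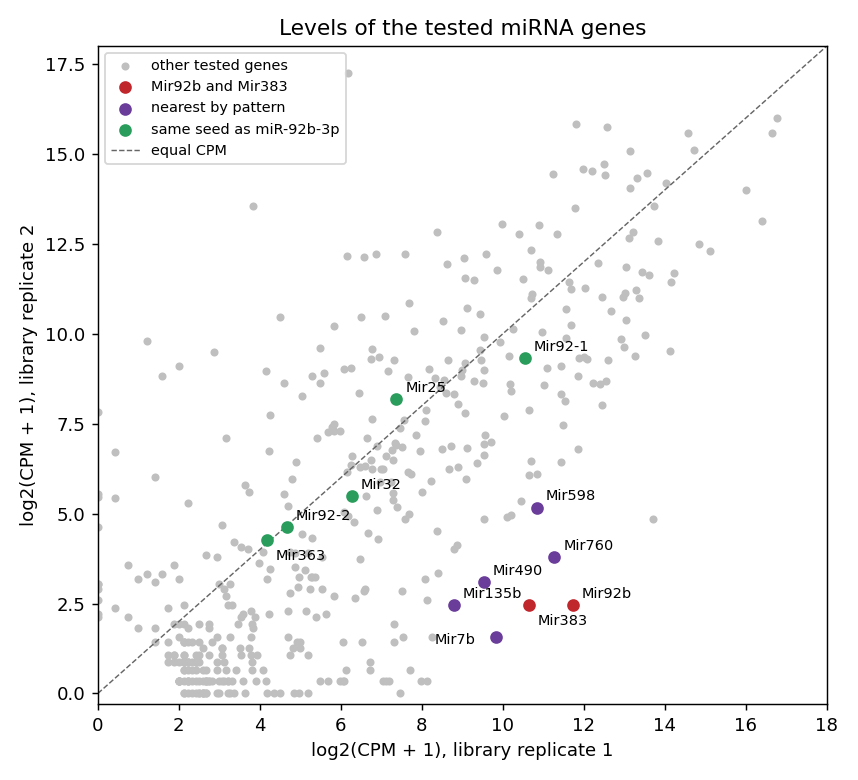
Each point is a tested miRNA gene (463 in all), with log2(CPM + 1) in the library labelled 1 on the x axis and in the library labelled 2 on the y axis, and the dashed line marks equal CPM. Mir92b and Mir383 (red) lie far below the line with Mir7b, Mir760, Mir490, Mir598 and Mir135b (purple), while the genes with the miR-92b-3p seed (green) lie close to it.

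Genes with the same seed as miR-92b-3p differed much less between the libraries than Mir92b did. Mir92b was chosen on this difference and they were not, so a gap in that direction was built in. Of the 6 other family genes, 5 had at least 10 counts summed, and 0 of these differed 4-fold in either direction in CPM, while with TMM 1 (Mir25) was at least 4-fold higher in the library labelled 2. Over all tested genes 44.3% were at least 4-fold higher in the library labelled 1 and 14.5% at least 4-fold higher in the library labelled 2, or 23.8% and 24.2% with TMM. The median log2 ratio of those 5 genes was 0.05, against 1.35 over all tested genes.

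Mir92-1, the member of the Mir17 cluster, which is known from proliferating cells, had 4477 counts in the library labelled 1 and 2297 in the library labelled 2, or 1493 and 642 CPM. Its ratio was 2.33-fold (2.21 to 2.45). Mir25, in an intron of the replication gene Mcm7 in the mouse, was lower in the library labelled 1, with 494 and 1038 counts, or 165 and 290 CPM, a ratio of 0.568 (0.509 to 0.633). With TMM Mir25 was 4.66-fold higher in the library labelled 2, and Mir92-1 turned to a ratio of 0.879. The directions of Mir92-1 and Mir32 thus depend on the scaling, whereas Mir25 was lower in the library labelled 1 under both.

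Mir32 had 228 and 157 counts, a ratio of 1.73 (1.41 to 2.14) with total counts and 0.655 with TMM. Mir92-2 and Mir363, both of the X-linked Mir106a-363 cluster, had 73 and 84 counts and 51 and 65 counts. Their ratios of 1.04 (0.747 to 1.44) and 0.936 (0.636 to 1.37) have intervals that include equal CPM. With TMM they were 2.55-fold and 2.83-fold higher in the library labelled 2. Mir367, of the embryonic stem cell cluster with Mir302 genes, had 0 counts in both libraries.

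The makeup of the seed family can be given within each library, where scaling plays no part. Mir92b held 65.5% of the family's 15441 counts (exact 95% binomial interval 64.8 to 66.3) in the library labelled 1, and 0.438% of 3657 counts (0.250 to 0.710) in the library labelled 2. Mir92-1 held 29.0% (28.3 to 29.7) and 62.8% (61.2 to 64.4), and Mir25 held 3.20% and 28.4%. The first library's assigned family counts were thus mainly Mir92b, and the second library's mainly Mir92-1 and Mir25. Mir92b was chosen on these same counts, so the direction of the shift in its share was built in. Reads that fit both Mir92-1 and Mir92-2 are outside these counts, so the shares of Mir92b may be too high in both libraries.

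There were 1.90 Mir92b counts for each count of the other family genes in the library labelled 1 and 0.00439 in the library labelled 2, a 433-fold quotient (exact 95% conditional interval 266 to 758). Against Mir92-1 alone the quotient was 324-fold (199 to 569). Both quotients use the counts on which Mir92b was chosen, so their direction was also built in. Without Mir92b the family summed to 1775 CPM in the library labelled 1 and 1018 CPM in the library labelled 2, a 1.74-fold ratio (1.67 to 1.82) that turned to 0.659 with TMM, so its direction depends on the scaling. With it the sums were 5149 and 1022 CPM, 5.04-fold (4.86 to 5.22), or 1.90-fold with TMM. Counts are per hairpin, so these sums may include reads of the arms that lack this seed. Any reads of Mir92-1 and Mir92-2 that fit both sites are outside the sums.

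**Figure D4:**
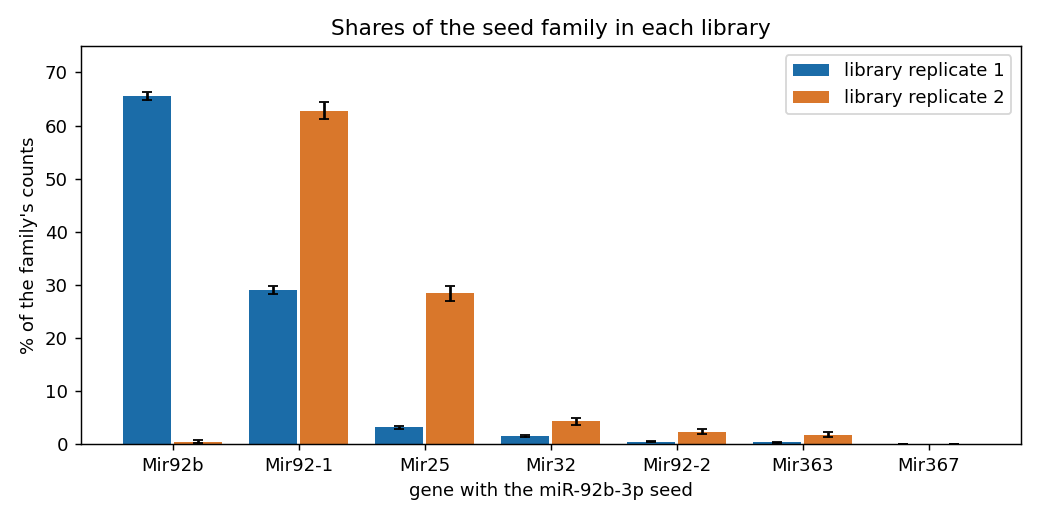
Percent of the counts of the 7 genes with the miR-92b-3p seed that fell on each gene, with the library labelled 1 left (blue) and the library labelled 2 right (orange), and bars for exact 95% binomial intervals. Mir92b holds 65.5% in the library labelled 1 and 0.438% in the other, where Mir92-1 holds 62.8%. Mir92b was chosen on its counts in these libraries, so the direction of that shift was set in advance. Reads that fit both Mir92-1 and Mir92-2 are not counted, so the shares of those genes may be too low.

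The other miRNA genes linked to neural progenitors were mixed. Of 13 such genes, 12 were tested, 6 were at least 4-fold higher in the library labelled 1 (6 of 12 beside 44.3% of all tested genes), and 0 were 4-fold higher in the library labelled 2. With TMM 3 of the 12 were at least 4-fold higher in the library labelled 1, beside 23.8% of all tested genes. Both 4-fold shares were thus near the background. In CPM, 3 of the 12 were at least 100-fold higher in the library labelled 1, beside 4.54% of all tested genes. Those were Mir137 and Mir9 copies with 1 count in the library labelled 2. The median log2 ratio of the list was 1.86, against 1.35 over all tested genes. Mir137, which acts in neural stem cells and in neurons, had 40242 counts in the library labelled 1 and 99 in the library labelled 2, a 485-fold ratio (398 to 597). Its interval overlaps those of Mir92b and Mir383. Mir9-3, a copy of the brain miRNA miR-9, had 837 and 1 counts, a 999-fold ratio (179 to 39488).

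Cell cycle genes of the same list differed far less than Mir92b, which was chosen on this difference, so a gap in that direction was built in. Mir17 had 30006 and 8526 counts, a 4.20-fold ratio (4.10 to 4.30), Mir93 had 25213 and 4757, 6.32-fold (6.13 to 6.52), and Mir20a had 8974 and 3380, 3.17-fold (3.04 to 3.30). Mir134, of the imprinted Dlk1-Dio3 region, had 5061 and 7923 counts, a ratio of 0.762 (0.736 to 0.790). The ratio was 0.933 (0.881 to 0.989) for Mir106b and 1.85 (1.73 to 1.98) for Mir18. With few counts, Mir19a had a ratio of 0.954 (0.327 to 2.69), Mir19b-1 7.95 (2.36 to 41.8) and Mir184 0.670 (0.420 to 1.05). Except for Mir137 and the Mir9 copies, the tested genes of this list stayed below 10-fold.

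Of the 14 tested neuron-enriched genes, 13 were at least 4-fold higher in the library labelled 1, beside 44.3% of all tested genes, and 4 at least 100-fold higher, beside 4.54%. With TMM 11 of the 14 were at least 4-fold higher there, beside 23.8%. Their median log2 ratio was 4.94, against 1.35 over all tested genes. Mir128-1 had 53592 counts in the library labelled 1 and 2623 in the library labelled 2, a 24.4-fold ratio (23.4 to 25.4). Mir132, which responds to neuronal activity, had 11179 and 391 counts, 34.1-fold (30.8 to 37.8). The largest ratios of the list were those of Mir7-2, with 435 and 1 counts, 519-fold (92.7 to 20545), and of Mir7b, described above, at 468-fold, both with intervals that overlap those of Mir92b and Mir383. The muscle shares in the same libraries were 0.00730% and 15.7%. The part of those marker differences in the levels of Mir92b and Mir383 was not tested. Leaving Mir206, the muscle gene with 0.00707% and 15.6% of counts, out of the totals gave 637-fold for Mir92b and 302-fold for Mir383.

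**Figure D5:**
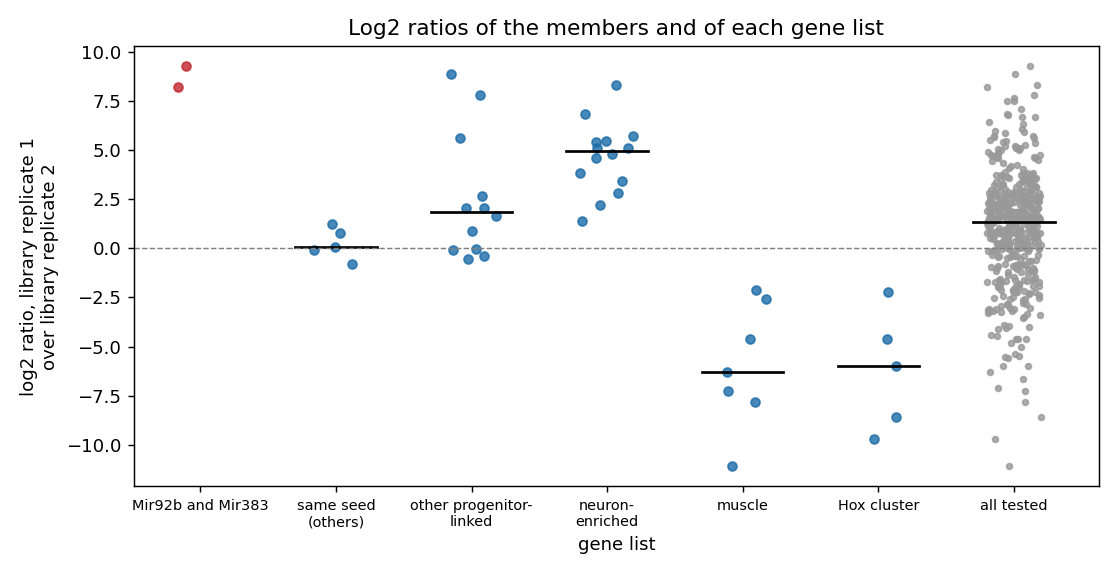
Log2 ratio of the library labelled 1 over the library labelled 2, with a prior of 1 CPM, for each tested gene of each list, with a black line at the list's median. Mir92b and Mir383 (red, 9.27 and 8.19) lie above the medians of the other family genes (0.05), the progenitor-linked list (1.86), the neuron-enriched list (4.94) and all tested genes (1.35). Both were chosen on this difference, so their place above the medians was set in advance.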

How the data were processed

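Raw read counts per miRNA gene were deposited by the authors in 3 columns (either, own and opposite strand), 1 table per library, on mm10 with GENCODE M21, per the labels and the description files beside the tables. Neither aligner nor counter is named in the sources used here. The 4 entries without a gene, which have the layout of STAR gene counts, stayed out of library sizes; they were 70.1% and 47.4% of reads on the own strand. The own-strand column was used, as CPM of its total. Genes with at least 10 counts summed (463) were called tested. No test was run, since the members were chosen on the only contrast and the edgeR quasi-likelihood test has no contrast in 1 group of 2 libraries. Folds carry exact 95% Clopper-Pearson intervals with no prior, and log2 ratios a prior of 1 CPM. A count of 0 was set to 3 counts in calls of 4-fold and 100-fold. Fold calls and intervals were run on simulated Poisson counts. These hold counting error only, so they cannot check the intervals against amplified reads or spread between libraries. The members, gene lists and bounds were chosen with earlier results of these data known. Named genes are the members, the seed family, the 5 nearest genes by level, the loci's neighbours and genes near the bounds. The gene with the largest share and up to 4 genes per list by mean CPM were named too. Mir9-3, Mir134, Mir7-2, Mir106b, Mir18, Mir19a, Mir19b-1 and Mir184 fall outside these rules and were named with their values known. Hairpins were folded with RNAfold 2.7.2. Alternatives were TMM, DESeq2 size factors, all reads, totals without Mir206, either-strand counts, other count filters, another prior and each library alone. Values came from Python 3.11.15 (pandas 2.3.3, scipy 1.17.1, numpy 2.4.6), figures from matplotlib 3.10.9, and scaling factors from DESeq2 1.42.0 and edgeR 4.0.16 in R 4.3.3.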

Additional observations from a re-analysis of the deposited data

How the results depend on the processing

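Mir92b and Mir383 kept their direction under each of the 5 alternative scalings and counts run. With TMM factors, DESeq2 size factors and all reads as the total the fold of Mir92b was 285, 257 and 429, and that of Mir383 135, 122 and 203, all outside the counting intervals of the main values. These settings change only the factors by which the counts of each library are divided. No factor of this size could turn such folds, so the kept direction is no separate check. Without Mir206 the folds were 637 and 302, and with either strand 705 and 335. Either-strand counting moved the ranks to 51 and 267 for Mir92b and 75 and 267 for Mir383. Each library alone gave Mir92b 3374 or 4.47 CPM and Mir383 1601 or 4.47 CPM, so neither mean describes a library. The 205 genes at least 4-fold higher in the library labelled 1 became 110 with TMM and 109 with a filter of 100 counts, and the 67 higher in the library labelled 2 became 112 with TMM. With TMM the median log2 ratio of the seed family, 0.41 with Mir92b included, turned to -0.95, and those of the progenitor-linked, neuron-enriched and all tested genes were 0.46, 3.55 and 0.26. The summed ratio of the family, tried with TMM after the data were seen, was 0.659 without Mir92b, against 1.74 with total counts, and 1.90 with Mir92b, against 5.04. No paired analysis was possible because there is 1 group of 2 libraries. The 16 counts of each gene in the library labelled 2 limit the precision of both folds.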
